A study of Homo sapiens with 4 samples.

Results

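The transcripts described here encode the hnRNP proteins, the numbered SR proteins, the snRNP core proteins named SNRP, and the SF3A, SF3B and U2AF factors. They were chosen by gene symbol in GENCODE release 29. The symbol rule found 57 genes of the 16292 listed in at least 1 library: 23 hnRNP, 12 SR, 11 snRNP and 11 SF3 and U2AF genes. Levels are in RPKM, reads scaled by coding length and by the reads of the library, and a filter asked for 5 RPKM or more on average across libraries. It was passed by 53 of the 57, namely 20 hnRNP, 12 SR, 10 snRNP and 11 SF3 and U2AF genes. HNRNPUL2, HNRNPCL2, the read-through gene HNRNPUL2-BSCL2 and SNRPN stayed under it. Another 5 protein-coding names that the rule also matches, HNRNPA1P48, HNRNPCL1, HNRNPCL3, HNRNPCL4 and SNRPB, were not analysed here, so the Sm ring is described by 6 of its 7 genes.

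Ribosome footprints (mRNA pieces protected by ribosomes) were sequenced in HEK293, a long-established line from human embryonic kidney. The 4 groups were wild type without erythromycin, wild type with erythromycin, RPL4 mutant without erythromycin and RPL4 mutant with erythromycin, with 1 library each. The protocol shared by all the libraries covers stable lines carrying GFP, wild type L4 or the Δloop mutant, each given lentiviral shRNA against RPL4 or a scramble control, and harvest after cycloheximide or lactimidomycin. Which of these applied to a given library, and the erythromycin dose, are not in the labels. RPL4 is a protein of the large ribosomal subunit whose loop reaches into the tunnel through which the new protein leaves, and erythromycin is a macrolide antibiotic that binds in that tunnel in bacterial ribosomes. A footprint level is the product of mRNA amount and ribosome density, and these cannot be told apart here. With 1 library a group, no difference below has a replicate check.

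The spliceosome removes introns from pre-mRNA. Its snRNPs are small nuclear RNAs held in a ring of Sm proteins, to which particle-specific proteins such as the U1 protein SNRPC are added; SF3A and SF3B belong to the U2 snRNP and hold the branch point, and U2AF marks the 3′ splice site. SR proteins bind exonic RNA and help splice sites to be used, through a tail rich in arginine and serine. The hnRNP proteins coat nascent RNA, often oppose SR proteins at splice sites, and many carry a region rich in arginine and glycine; they are among the abundant RNA-binding proteins of dividing cells.

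The stretches below are printed to show these arginine, serine and glycine repeats in the translated message. Each is the 60-base window (20 codons) with the most arginine and serine codons, for SR genes, or arginine and glycine codons, for the others, of the measured transcript. Positions count from the A of the start codon, capitals mark arginine codons, and the sequences are those of the GENCODE 29 transcripts on GRCh38. SRSF1 lies on the minus strand at chr17:58003360-58007346 and its window covers coding bases 610 to 669. SRSF3 lies on the plus strand at chr6:36594353-36605600, with the window at 334 to 393, and SRSF4 on the minus strand at chr1:29147743-29181987, with the window at 535 to 594. SNRPD1 lies on the plus strand at chr18:21612267-21633524, with the window at 289 to 348. HNRNPA1 lies on the plus strand at chr12:54280193-54287088, with the window at 649 to 708, and HNRNPK on the minus strand at chr9:83968083-83980616, with the window at 754 to 813.
SRSF1: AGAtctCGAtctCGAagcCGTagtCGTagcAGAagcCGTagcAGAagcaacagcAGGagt
SRSF3: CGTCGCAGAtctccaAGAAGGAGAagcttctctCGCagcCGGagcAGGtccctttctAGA
SRSF4: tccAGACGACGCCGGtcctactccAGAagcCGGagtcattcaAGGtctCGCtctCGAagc
SNRPD1: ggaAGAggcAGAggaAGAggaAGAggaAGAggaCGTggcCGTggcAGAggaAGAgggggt
HNRNPA1: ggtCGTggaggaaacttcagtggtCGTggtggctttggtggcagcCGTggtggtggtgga
HNRNPK: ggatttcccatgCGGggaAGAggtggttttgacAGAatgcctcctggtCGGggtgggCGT

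In SRSF1 the window held 9 arginine and 10 serine codons, in near-perfect alternation. SRSF3 had 10 arginine and 7 serine codons, and SRSF4 had 9 of each. The Sm protein SNRPD1 held 9 arginine and 11 glycine codons near its end, with no other codon between them. HNRNPA1 had 3 arginine and 12 glycine codons, and HNRNPK 5 and 7. A window with at least 15 arginine or serine codons was present in 11 of 12 SR genes, in 2 of 11 SF3 and U2AF genes and in none of the 19 hnRNP and 10 snRNP genes examined, against 1.27% of 9450 transcripts. A window with at least 15 arginine or glycine codons was present in 8 of the 19 hnRNP genes, 3 of 12 SR genes, 1 of 10 snRNP genes and 1 of 11 SF3 and U2AF genes, against 1.34%. Such windows were thus not limited to hnRNP genes, and in HNRNPA2B1 the window held 14 glycine codons but 1 arginine codon. Glycine made up a median of 16.1% of hnRNP codons and 6.40% of the codons of all genes, and arginine 19.8% of SR codons against 5.65%. HNRNPU passed the filter but is not in these codon counts and medians.

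**Figure D1:**
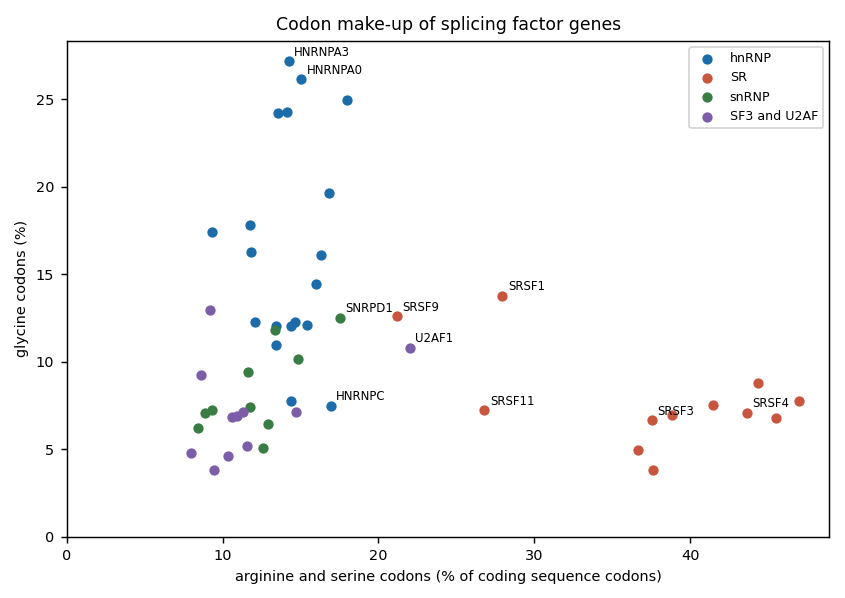
Share of arginine plus serine codons (x axis, % of codons) against the share of glycine codons (y axis, %), 1 point per gene coloured by group, without HNRNPU. The SR genes lie to the right and many hnRNP genes at the top, while most snRNP and SF3 and U2AF genes sit at the lower left; U2AF1, SNRPD1 and SF3B4 lie outside that cluster.

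RPL4 itself was read at 2515 RPKM in wild type and 2586 RPKM in wild type with erythromycin, against 1707 in the RPL4 mutant and 1439 in the mutant with erythromycin. Reads from an introduced copy would count as RPL4, so these values check the labels only in part. The library totals recovered from the RPKM steps were 2965243 and 2555613 reads in wild type, without and with erythromycin, and 604506 and 993461 in the mutant, so the mutant values carry the wider counting error and depth moves with genotype. Of the 7 markers looked for in this line, VIM, KRT8, KRT18, NEFL and SOX2 were above 11 RPKM in every library, NEFM and PAX2 were under 3 RPKM, PTPRC was not listed, and of the markers of other cell types ALB, CD3E, HBB and MYH7 were at or near 0 apart from HBB at 3.73 RPKM in the untreated mutant and CD3E at 1.61 RPKM in the treated mutant. COL1A1, a fibroblast collagen, was read at 6.68, 4.10, 6.40 and 3.89 RPKM in wild type, wild type with erythromycin, mutant and mutant with erythromycin. The line's own markers moved too: KRT8 was at 428 RPKM in wild type with erythromycin and 232 in the mutant with erythromycin. The part of depth and of such shifts in the results below was not tested.

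The 57 genes together took 2.24% of reads in wild type (95% Wilson interval 2.22 to 2.26), 2.43% in wild type with erythromycin (2.41 to 2.45), 1.92% in the mutant (1.89 to 1.96) and 1.75% in the mutant with erythromycin (1.72 to 1.77). Their share was thus highest in the treated wild type library and lowest in the treated mutant library. The hnRNP genes made most of this, with 1.26% and 1.45% in the wild type libraries and 1.09% and 0.959% in the mutant ones. The SR share ran from 0.293% to 0.349% and the snRNP share from 0.270% to 0.330%. SF3 and U2AF genes took 0.323%, 0.305%, 0.266% and 0.224% in the order wild type, wild type with erythromycin, mutant, mutant with erythromycin, which is used from here on. All such intervals cover counting error only, and with 1 library a group they leave out differences between libraries. They also treat each read as independent, so PCR copies would make them too narrow.

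Footprints on these messages were abundant. In wild type the median level was 648 RPKM for the snRNP genes, 388 for hnRNP, 207 for SR and 134 for SF3 and U2AF genes, against 24.9 for the 9612 genes that passed the same filter. SNRPD2, an Sm ring protein, was the highest of all, at 2814, 2659, 2122 and 2473 RPKM. HNRNPA2B1, which binds pre-mRNA and transported mRNAs, was the leading hnRNP gene at 1631, 1989.6, 1472 and 1352 RPKM. SRSF3, the smallest SR protein, led its group at 1325, 1562, 1247 and 1082 RPKM. In wild type SRSF3 (counting interval 1267 to 1385 RPKM) could not be ranked against its neighbour SNRPD3, an Sm protein, at 1347 RPKM (1280.4 to 1417).

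Subunits that meet in equal numbers in a complex were not read at equal levels per length. In the Sm ring the highest gene, SNRPD2, exceeded the lowest by 5.77, 5.10, 5.13 and 5.68 times. The lowest was SNRPD1 in wild type, at 488 RPKM, and SNRPF in the other libraries, at 522, 414 and 435 RPKM. SNRPE was read at 891, 937, 943 and 906 RPKM, and SNRPG at 772, 781, 619.6 and 633 RPKM, so the order within the ring changed little across the libraries. Annotated pseudogenes number 20 for SNRPG, 9 for SNRPE and 2 for SNRPD2, and reads cannot be separated from theirs with certainty. In SF3B the spread was wider, 13.1, 9.23, 11.2 and 13.3 times, with the short SF3B5 highest (955, 735, 646 and 629 RPKM). The large scaffold SF3B1, which clamps the branch point, was read at only 84.2, 86.7, 57.5 and 55.5 RPKM. The 3 SF3A genes lay within 1.58, 1.53, 1.98 and 1.78 times of each other.

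**Figure D2:**
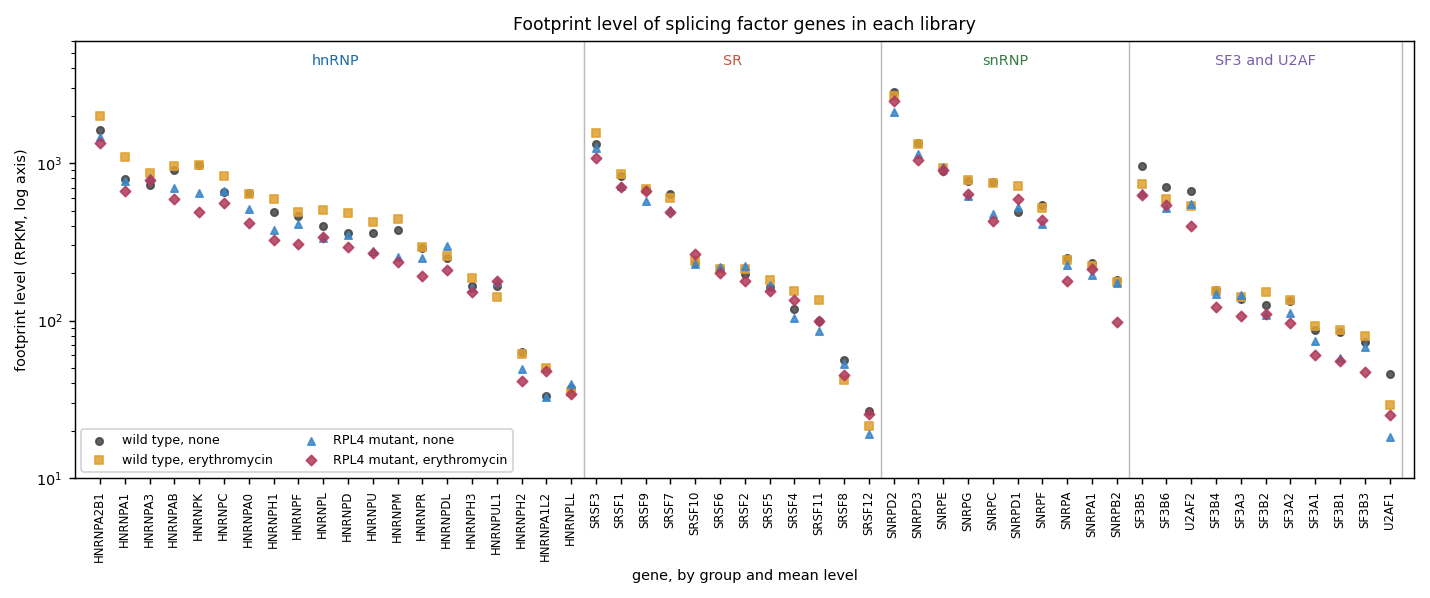
Footprint level in RPKM (log axis) of the 53 genes that passed the filter, with 1 marker per library and genes ordered by mean level inside each group. SNRPD2 is the highest gene in each library, and among the hnRNP genes the treated mutant (red) is mostly lowest and the treated wild type (yellow) mostly highest.

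The comparison of erythromycin with none was made in each genotype as a log2 ratio of RPKM + 1, centred on the median of the 9612 genes; the pseudocount understates the change of low genes. In wild type the hnRNP genes lay higher with the drug: 16 of 20 had a ratio above 0, with a median of 0.22, while the medians were 0.05 for SR, -0.02 for snRNP and 0.04 for SF3 and U2AF genes. With no filter on low values the hnRNP median was 0.079. The summed reads of the SF3 and U2AF genes gave -0.068 (95% counting interval -0.11 to -0.024), on the other side of 0 from their median. All genes have a median of 0 and 50% of ratios on each side by construction; their quartiles were -0.24 and 0.23, so the hnRNP median with the filter lay close to the upper quartile of all genes. No gene of the set was 1.5-fold higher (6.29% of all genes were) and 1 was 1.5-fold lower, U2AF1 (6.52% of all genes were). These shares were smaller among the 1721 genes averaging 100 RPKM or more, a filter chosen after seeing the data. Centred on their own median, 2.56% of them were 1.5-fold higher and 1.92% lower. Of the 44 genes of the set that passed it, 0 were higher and 0 lower.

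HNRNPA1, which binds splicing silencers and shuttles with mRNA, went from 797 to 1092 RPKM in wild type with the drug, a log2 ratio of 0.47 (95% counting interval 0.40 to 0.55). In the mutant it went from 767 to 662 RPKM, a log2 ratio of -0.27 (-0.43 to -0.10). The treated wild type library was thus the high one of the 4, and the treated mutant library the low one. HNRNPA2B1 was at 0.30 (0.25 to 0.36) in wild type and -0.18 (-0.30 to -0.06) in the mutant. HNRNPC, which binds uridine tracts, was read at 655, 823, 663 and 558 RPKM, with log2 ratios of 0.35 and -0.30. HNRNPD, a binder of AU-rich mRNA elements, was read at 359, 483, 349 and 295 RPKM, with ratios of 0.44 and -0.29. This order had treated wild type as the highest of the 4 libraries and treated mutant as the lowest. It was found in 12 of 20 hnRNP, 3 of 12 SR, 0 of 10 snRNP and 4 of 11 SF3 and U2AF genes, and in 9.72% of all genes. Outside the set, VIM (964, 1100, 744 and 637 RPKM), KRT8, KRT18 and RPL4 also had it, while NEFL and SOX2 did not. Its share among genes of similar level is not given here. The counting interval lay above 0 in wild type and below 0 in the mutant for 6 hnRNP genes and SRSF3, 7 in all (1.76% of all genes); genes with many reads, as here, meet this more easily.

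In the mutant the hnRNP ratios were almost all on the other side: 19 of 20 were below 0 (50% of all genes), with a median of -0.27 (quartiles of all genes -0.31 and 0.36). The exception was HNRNPA1L2, a near copy of HNRNPA1 read at 33.3, 49.6, 32.6 and 48.1 RPKM. In the mutant it had 19 and 46 reads, and the interval of its ratio, 0.49, included 0 (-0.29 to 1.36). Its reads cannot be separated with certainty from those of HNRNPA1 and the 74 annotated HNRNPA1 pseudogenes. With the centre moved from 0.05 to the median of the genes averaging 100 RPKM or more, -0.0005, HNRNPL (-0.03 here) and HNRNPUL1 (-0.02 here) also lay above 0. No gene of the set was 1.5-fold higher in the mutant with the drug (15.4% of all genes) and 1 was 1.5-fold lower (10.7%). Among the 1721 genes averaging 100 RPKM or more, centred on their own median, 5.40% were higher and 2.56% lower. Of the 44 genes of the set in that range, 0 were higher and 1 was lower. The lower gene in both counts was SNRPB2, a protein of the U2 snRNP. It was at 173 RPKM in the mutant and 98.0 in the mutant with erythromycin (log2 ratio -0.87, -1.38 to -0.37). In wild type it was at 180.1 and 176 RPKM. HNRNPDL, an hnRNP D relative, was the lowest hnRNP gene, from 297 to 209 RPKM (-0.56, -0.83 to -0.30); the transcript deposited for it is annotated as a target of nonsense-mediated decay. HNRNPK, a poly(C)-binding protein, went from 651 to 488 RPKM in the mutant (-0.47) and from 968 to 977 in wild type (0.03). Annotated pseudogenes, 5 for HNRNPK and 9 for HNRNPC, could also share the reads of these genes.

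SR genes did not share a direction. SRSF3 had the pattern of the hnRNP genes, with a log2 ratio of 0.25 (0.16 to 0.34) in wild type and -0.26 (-0.45 to -0.06) in the mutant. SRSF1, a general splicing activator, was read at 830.3, 850.4, 714 and 708 RPKM, with ratios of 0.05 and -0.07 whose intervals both included 0. SRSF9 was at 674, 689, 571 and 667 RPKM and SRSF7 at 633, 599, 503 and 490.0 RPKM, again with intervals that included 0 in both genotypes. SRSF11, a less abundant SR protein, was the highest of the group in wild type at 0.45 (0.27 to 0.65), from 99.7 to 136 RPKM. SRSF8 was the lowest at -0.40 (-0.81 to -0.02), from 56.4 to 41.9 RPKM and on 142 and 91 reads.

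Among the snRNP genes SNRPD1 stood out in wild type, from 488 to 715 RPKM, a log2 ratio of 0.57 (0.40 to 0.74), and was at 524 and 590.0 RPKM in the mutant. It is the gene whose glycine and arginine stretch is printed above. The other 5 Sm genes lay between -0.07 and 0.09 in wild type. SNRPD2 was the only gene of the set whose counting interval lay above 0 in the mutant with the drug, at 0.17 (0.003 to 0.33; 7.24% of all genes had such an interval). In the SF3 group the 2 short genes were lower in wild type with the drug: SF3B5 at -0.36 (-0.53 to -0.20) and SF3B6, which contacts the branch point adenosine, at -0.24 (-0.40 to -0.09), from 707 to 590.0 RPKM. SF3B2 was at 0.28 (0.16 to 0.41).

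U2AF2, which binds the polypyrimidine tract, was the only gene of the set with a counting interval below 0 in both genotypes (1.39% of all genes had this): 664 and 531 RPKM in wild type (-0.31, -0.39 to -0.22) and 548 and 401 RPKM in the mutant (-0.50, -0.68 to -0.32). U2AF1, its partner that reads the AG of the splice site, was read at only 45.7, 29.2, 18.3 and 25.1 RPKM, on 98, 54, 8 and 18 reads. The near-identical copy U2AF1L5 was read at 9.80, 12.4, 2.29 and 2.78 RPKM, and reads of this pair cannot be assigned with certainty. In the model described next the erythromycin term averages both genotypes, and the gap between their responses becomes the error. Opposite changes therefore cancel: HNRNPA1, at 0.47 and -0.27, had a term of 0.10. A lack of calls there says nothing about such opposite responses. A model over the 4 libraries with genotype and treatment as terms (limma, 1 residual degree of freedom, so exploratory) called no gene of the set for erythromycin at a Benjamini-Hochberg adjusted p of 0.05 (0.239% of all genes were called higher and 0.0104% lower). At an unadjusted p under 0.05 it gave 1 gene of the set on the lower side, U2AF2 (2.4% of all genes), and 0 on the higher side (3.78%).

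**Figure D3:**
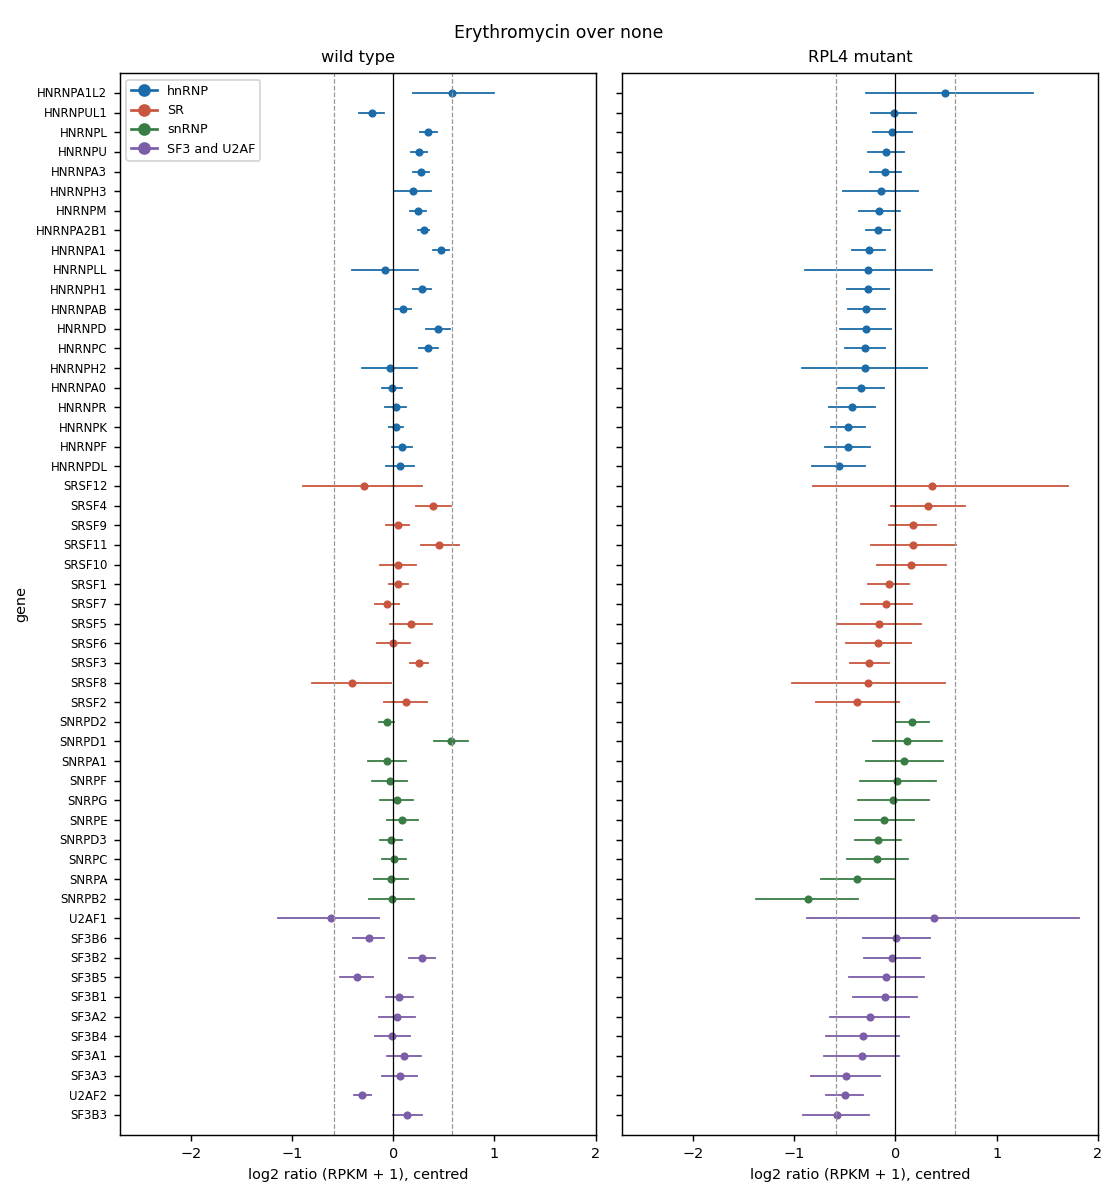
Log2 ratio of erythromycin over none in wild type (left) and the RPL4 mutant (right), with points for genes, bars for 95% counting intervals and dashed lines at 1.5-fold. Most hnRNP points lie right of 0 in the left panel and left of 0 in the right panel, and the mutant bars are longer.

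The comparison of the RPL4 mutant with wild type was made without and with the drug. Without erythromycin the medians were -0.14 for hnRNP, -0.12 for SR, -0.22 for snRNP and -0.23 for SF3 and U2AF genes. The quartiles of all genes were -0.29 and 0.32. Of the 53 genes, 41 were below 0 (50% of all genes). No gene was 1.5-fold higher (13.3% of all genes) and 2 were 1.5-fold lower (10.4%), SNRPC and U2AF1, the latter on 8 reads in the mutant. The level of a gene moved with this comparison: over the 1721 genes averaging 100 RPKM or more, a filter chosen after seeing the data, the median ratio before centring was -0.16, against -0.03 over the 9612 genes. Only the centre was then moved to the median of those 1721 genes, with all 53 genes kept. The hnRNP median was -0.0015 and the snRNP median -0.091. U2AF1 (-1.12) was still 1.5-fold lower while SNRPC, at -0.52, was not. No ratio fell with this move and SF3B3 went from -0.068 to 0.066, so fewer than 41 of the 53 lay below 0. The filter itself kept 44 of the 53 genes and dropped U2AF1, which left none 1.5-fold lower (1.86% of the 1721 genes), with an hnRNP median of -0.014 over 17 genes.

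With erythromycin the gap was wider. The medians were -0.64 for hnRNP, -0.47 for SF3 and U2AF, -0.35 for snRNP and -0.27 for SR genes (quartiles of all genes -0.34 and 0.39). Below 0 were 19 of 20 hnRNP, all 11 SF3 and U2AF, all 10 snRNP and 9 of 12 SR genes. These counts hold at the centre of all 9612 genes, which lay at 0.06. The centre of the 1721 abundant genes lay at -0.12, and there fewer were below 0. SNRPD2, at -0.17 here, was then above 0, so the snRNP genes were not all below it. In this comparison 20 of the 53 genes were 1.5-fold lower (11.3% of all genes) and none was 1.5-fold higher (16.8%). The 20 held 14 of 20 hnRNP genes, SRSF3, SNRPB2, SNRPC, SF3A1, SF3B1 and SF3B3. With only the centre moved to the median of the 1721 abundant genes, 8 of the 53 were 1.5-fold lower. The share of all genes tested at that centre is not given here, so this count has no background. The medians were then -0.46 for hnRNP, -0.28 for SF3 and U2AF, -0.17 for snRNP and -0.088 for SR genes. Over the 44 genes of the set that also passed 100 RPKM, 7 were 1.5-fold lower (5.81% of the 1721 genes), with medians of -0.49, -0.26, -0.17 and -0.12 in the same order of groups.

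HNRNPK was the lowest, with 977 RPKM in wild type and 488 in the mutant, both with the drug, a log2 ratio of -1.06 (-1.18 to -0.94). Centred on the median of all 9612 genes, it was the only gene of the set past 2-fold (2.26% of all genes were). Before centring its 976.7 and 488.5 RPKM were just under 2-fold apart, so this rests on the median of 0.06 that centring took off. Centred on the 1721 genes averaging 100 RPKM or more, whose median was -0.12, it was not past 2-fold. HNRNPM, an hnRNP that binds GU-rich RNA, followed at 442 and 234 RPKM (-0.98, -1.12 to -0.84). HNRNPH1, which binds runs of G, was at 588 and 324 RPKM (-0.92, -1.07 to -0.77). HNRNPA1 was at -0.78 (-0.90 to -0.67), HNRNPAB, an A/B family member, at -0.75 (-0.89 to -0.62) with 955 and 591 RPKM, and HNRNPA2B1 at -0.62 (-0.70 to -0.54). The abundant HNRNPA3 was less low, at 872 and 783 RPKM (-0.22, -0.33 to -0.11), although it belongs to the same family as HNRNPA1.

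HNRNPUL1, an hnRNP U relative, went the other way. It was read at 165, 140.2, 175 and 179 RPKM, highest in the treated mutant and lowest in the treated wild type library. Its log2 ratio of mutant over wild type with the drug was 0.29 (0.13 to 0.46), and it was the only gene of the set whose interval lay above 0 there (16.1% of all genes). HNRNPU, the nuclear scaffold protein of that subfamily, was at 357, 421, 278 and 270.1 RPKM, and its ratio was -0.70 (-0.83 to -0.58).

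SRSF3, the only SR gene among the 20, was at 1562 and 1082 RPKM with the drug (-0.59, -0.73 to -0.45). SRSF1 was at -0.33 (-0.47 to -0.18) and SRSF7 at -0.35 (-0.53 to -0.18). SRSF9 was at -0.11 (-0.27 to 0.05), and SRSF10, a splicing repressor when dephosphorylated, at 238 and 264 RPKM (0.09, -0.15 to 0.32). SR genes thus ranged from 1.5-fold lower to no detectable difference. In the Sm ring the 6 ratios lay between -0.38 and -0.11, the lowest being SNRPD3. SF3B3 was the lowest of its group at 79.6 and 47.1 RPKM (-0.81, -1.07 to -0.58), and SF3B1 was at -0.70 (-0.93 to -0.49).

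SNRPC, the U1 protein that helps to recognise the 5′ splice site, was read at 755, 751, 472 and 432 RPKM. Both mutant libraries lay below both wild type libraries, with log2 ratios of -0.65 (-0.90 to -0.41) without and -0.86 (-1.07 to -0.65) with the drug. SNRPC was the only gene of the set 1.5-fold lower at both treatments (1.58% of all genes were). SNRPA, the other U1 protein in the set, was at 248, 242, 224 and 179 RPKM, with ratios of -0.12 and -0.49.

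In the limma model the mutant effect was called for 2 genes of the set, both lower (0.281% of all genes were called lower and 1.66% higher). HNRNPK fell by 0.80 on the log2 scale (SE 0.185, adjusted p = 0.0352). SNRPC fell by 0.75 (SE 0.183, adjusted p = 0.0461). HNRNPM was at -0.76 (SE 0.208, adjusted p = 0.0792) and did not pass. Over 13 alternatives HNRNPK passed in 8 (adjusted p from 0.00214 to 0.377) and SNRPC in 7 (0.00758 to 0.381). Over genes of at least 100 RPKM neither passed, with adjusted p of 0.108 and 0.140, nor with all genes kept and the centre moved to those abundant genes (0.0897 and 0.118). At an unadjusted p under 0.05 the count was 11 of 53 on the lower side, 7 of them hnRNP genes (5.52% of all genes), and 0 on the higher side (6.89%).

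**Figure D4:**
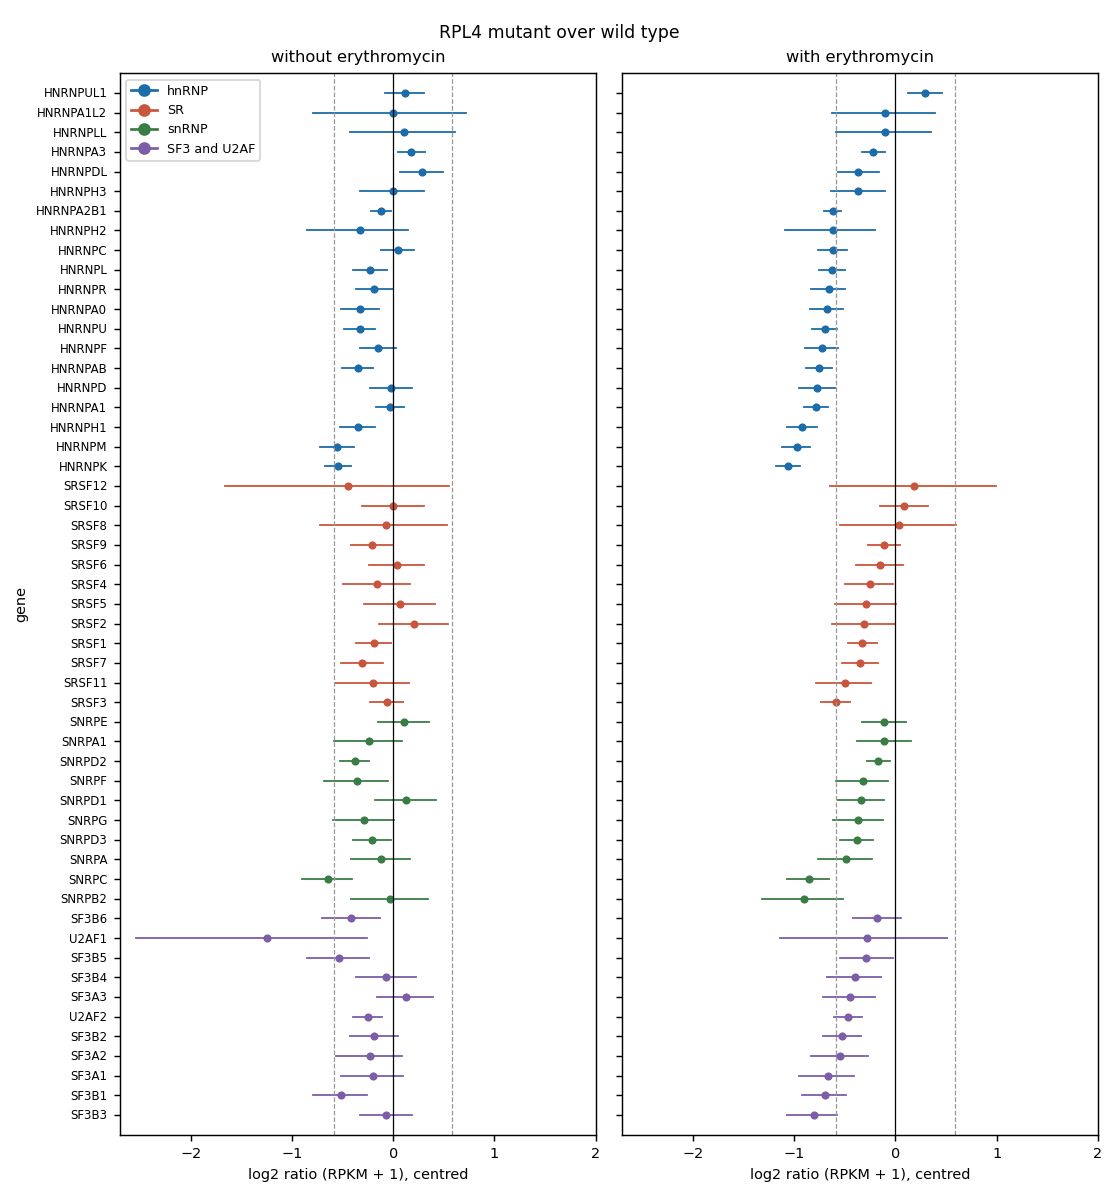
Log2 ratio of the RPL4 mutant over wild type without (left) and with (right) erythromycin, with points for genes, bars for 95% counting intervals and dashed lines at 1.5-fold. In the right panel HNRNPK, at -1.06, has the lowest ratio and HNRNPUL1, at 0.29, is the only hnRNP gene above 0.

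The response to erythromycin can be set side by side for the genotypes as the mutant's log2 ratio minus that of wild type. Its median was -0.39 for hnRNP genes, -0.29 for SF3 and U2AF, -0.17 for snRNP and -0.10 for SR genes, against 0.00 for all genes (quartiles -0.37 and 0.44). It was below 0 in 19 of 20 hnRNP, 8 of 11 SF3 and U2AF, 7 of 10 snRNP and 8 of 12 SR genes. The hnRNP median was -0.38 over genes of at least 100 RPKM and ran from -0.40 to -0.32 over all alternatives. HNRNPA1 had the lowest value of the hnRNP genes at -0.74 and HNRNPUL1 the highest at 0.20. All 4 comparisons are made from the same 4 libraries, so the values with the drug, the values in the mutant and this difference all contain the treated mutant library and are not separate evidence. With 1 library a group the difference between the genotypes' responses has no test.

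**Figure D5:**
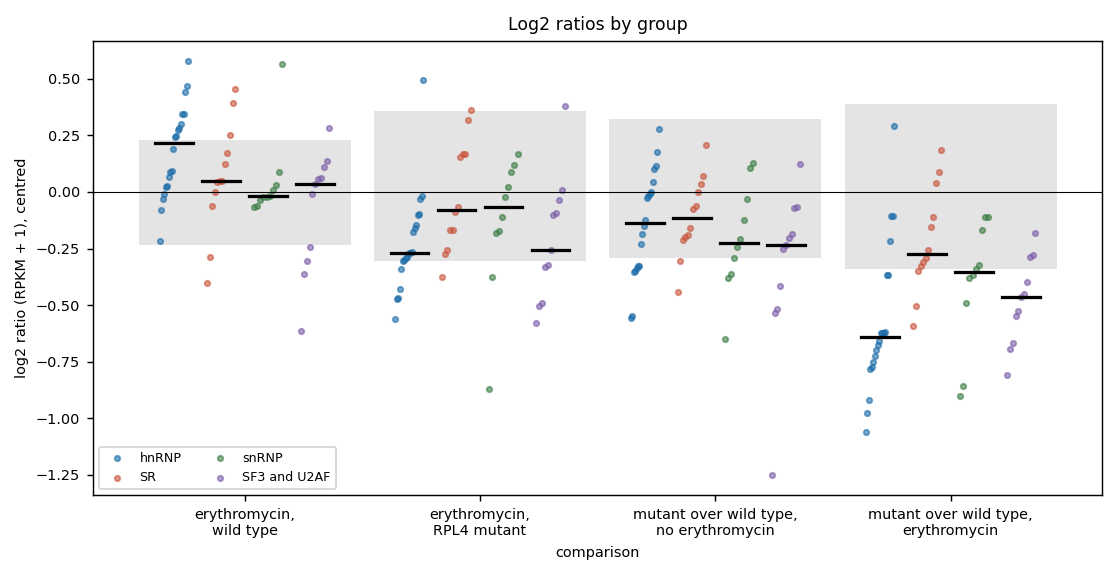
Log2 ratios of the 53 genes by group in the 4 comparisons, with black bars for group medians and grey bands for the quartiles of all 9612 genes. The hnRNP median is near the upper edge of the band for erythromycin in wild type, at 0.22, and below the band for the mutant with erythromycin, at -0.64.

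Coding length went with the ratios inside the SF3 and U2AF group, in a direction that differed between comparisons. Spearman's rho of length with the log2 ratio was 0.81 for erythromycin in wild type, -0.47 for erythromycin in the mutant, 0.46 for the mutant without the drug and -0.88 for the mutant with erythromycin, over 11 genes that share their libraries and whose RPKM is divided by that length. Over all 9612 genes rho was -0.04 for the first of these and 0.12 for the last. The other groups differed in sign and size. In the same order of comparisons rho was -0.36, 0.18, -0.20 and -0.08 for hnRNP genes. It was 0.15, 0.28, 0.05 and 0.24 for SR genes, and -0.44, -0.44, -0.07 and -0.48 for snRNP genes. Of the 53 genes, those of at least 1200 coding bases had a median of -0.62 in the treated mutant comparison and those under 600 bases -0.33, against 0.04 and -0.09 for all genes of those lengths. Base composition also moved with this comparison, with a rho of 0.25 with coding GC content over 9450 genes, and hnRNP coding sequences had a median GC of 48.0% against 52.2%; its part in the hnRNP values was not tested. Within 52 genes of the set, all groups together, rho with GC was -0.08, and with the share of arginine codons 0.45.

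Other splicing genes were read from 10 lists with 97 genes, of which 95 passed the filter. With erythromycin in wild type 3 were 1.5-fold higher and none lower (6.29% and 6.52% of all genes), and in the mutant 9 were higher and 7 lower (15.4% and 10.7%). In the mutant over wild type 1 was higher and 7 lower without the drug (13.3% and 10.4%), and 3 higher and 15 lower with it (16.8% and 11.3%). As shares of the 95 the last counts come to 3.16% and 15.8%, and the counts of each list below are read against the same 16.8% and 11.3%. The hnRNP proteins with other symbols, led by the poly(C)-binding PCBP2 (882, 851, 778 and 684 RPKM), had a median of -0.38 with the drug, and 4 of 11 were 1.5-fold lower. The spliceosomal helicases had a median of -0.37, with 2 of 11 lower, the proteins of the tri-snRNP and the Prp19 complex, which act in the catalytic spliceosome, -0.23 with 5 of 17 lower, and the U snRNP-specific proteins 0.07 with none of 7 lower. LSm proteins, which bind U6 RNA, were at -0.18 with none of 8 lower. The SMN complex and Sm methylation list, which assembles the Sm ring, was at -0.37 with 1 of 11 lower, and the exon junction complex at -0.25 with 1 of 5 lower. The partners of U2AF were at -0.37 with 1 of 8 lower, and the SR kinases and importin at 0.09 with 1 of 7 higher and 1 lower.

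SR-related proteins, which carry an arginine and serine tail but lie outside the numbered series, had a median of 0.11 with the drug, with 2 of 10 higher. In limma ACIN1, an SR-related protein of the exon junction-associated ASAP complex, was the only called gene of the 95, and it rose in the mutant by 2.38 (SE 0.194, adjusted p = 1.2e-06). It was read at 400.5, 268, 2601 and 1141 RPKM, so both mutant libraries lay far above both wild type libraries. For erythromycin limma called none of the 95.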

How the data were processed

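Ribosome footprints were measured in 4 HEK293 libraries. The authors deposited 1 RPKM value per Ensembl transcript and library, with absent transcripts read as 0. The tools cutadapt and STAR and the build GRCh38 are named in the submitters' processing notes, with no versions; the counter is not given in the sources used here. Transcripts were matched to GENCODE release 29 (16172 of 16292). Between 98.9% and 99.0% of values gave whole reads (within 0.001 read) at the recovered library totals, and these reads served for exact 95% counting intervals. Ratios are log2(RPKM + 1), centred on the median of the 9612 genes averaging 5 RPKM or more. limma 3.58.1 (R 4.3.3, Python 3.11.15) was fitted to all 4 libraries with a variance trend and Benjamini-Hochberg adjustment. It was also run on simulated reads with counting error only and the same drug effect in both genotypes. Those reads hold no other differences between libraries, so that run cannot show how the model behaves on the real libraries. Samples were grouped by the genotype and treatment labels. A difference of 1.5-fold was the descriptive threshold. Pseudocount, filter, centring, library total and model were varied.

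Named genes were the 4 highest in each group, the Sm ring and U2AF genes, genes called by limma, the extremes of each comparison and those 1.5-fold changed in both genotypes or treatments; further genes were named after their values were seen. In the other lists the most abundant gene of each and any called gene could be named. The members and lists were chosen with earlier results of these data known.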

Additional observations from a re-analysis of the deposited data

Results flagged for a closer look

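For 7 genes the counting interval of erythromycin over none lay above 0 in wild type and below 0 in the RPL4 mutant, which 1.76% of all genes showed. Genes with many reads, as here, have narrow intervals and meet this more easily. The log2 ratios in wild type and mutant were 0.47 and -0.27 for HNRNPA1, 0.44 and -0.29 for HNRNPD, 0.35 and -0.30 for HNRNPC, and 0.30 and -0.18 for HNRNPA2B1. They were 0.28 and -0.27 for HNRNPH1, 0.094 and -0.29 for HNRNPAB, and 0.25 and -0.26 for SRSF3. With 1 library a group the difference between the genotypes was not tested.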

How the results depend on the processing

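No paired analysis was possible because each group has 1 library and no label links libraries. No replicate could be left out. Of the group medians, counts and limma results recomputed under the alternatives, 314 stayed within the spread used and 48 did not. For the mutant with erythromycin the hnRNP median was -0.72 at a mean of at least 1 RPKM, -0.53 at 20 RPKM and -0.55 with at least 20 reads expected in every library, and the snRNP median was -0.24 at 20 RPKM. No share of all genes is given for the counts below at 20 RPKM, with 20 reads or with the centre moved. In the mutant with erythromycin the count of 1.5-fold lower genes was 11 at 20 RPKM, 12 with 20 reads and 1 at 2-fold. At 100 RPKM, chosen after seeing the data, it was 7, with medians of -0.49 (hnRNP), -0.12 (SR), -0.17 (snRNP) and -0.26 (SF3 and U2AF), and without the drug the medians were -0.014 (hnRNP) and -0.091 (snRNP). With all members kept and the centre moved to the genes passing 100 RPKM, also chosen after seeing the data, the count was 8 with the drug and 1 without, with medians of -0.46 (hnRNP), -0.088 (SR), -0.17 (snRNP) and -0.28 (SF3 and U2AF) with the drug and -0.0015 (hnRNP) and -0.091 (snRNP) without. In both settings HNRNPA2B1 without the drug (0.011) and SNRPD2 with it (0.018) were among the ratios that changed sign. The centre moved from -0.03 to -0.16 without the drug and from 0.06 to -0.12 with it. Every ratio of mutant over wild type rose with it, so others just below 0 also crossed 0. SF3B3 without the drug, for example, went from -0.068 to 0.066. The hnRNP median for erythromycin in wild type was 0.079 with no filter, and summed reads gave -0.068 for SF3 and U2AF there.

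The small counts moved as follows. Those with no share of genes beside them have no background and cannot be read as a trait of the set. Erythromycin in wild type, lower: 2 at 1 RPKM and with no filter, 0 with 20 reads and with a pseudocount of 5. It was also 0 at 100 RPKM (1.92% of the 1721 genes) and at 2-fold (1.54% of all genes). Higher in that comparison: 1 with a pseudocount of 0.1. Erythromycin in the mutant, lower: 3 at 1 RPKM, 2 with no filter, with a pseudocount of 0.1 and with the trimmed mean, 0 at 2-fold (3.39% of all genes). Mutant without the drug, lower: 4 at 1 RPKM, 1 with 20 reads, 1 at 2-fold (3.32% of all genes), 0 at 100 RPKM (1.86% of the 1721 genes). Higher in that comparison: 1 at 1 RPKM and with no filter. The limma count of 2 for the mutant was 1 at 20 RPKM and 0 at 100 RPKM, with the centre moved to those genes, without the variance trend, without the term for treatment and with totals that leave out the 20 most-read transcripts. The cause of these changes was not tested. Depth limits the mutant most, at a median of 151 reads per gene of the set untreated and 216 treated, against 792 and 743 in wild type.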
